A study of Mus musculus with 4 samples.

Results

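Genes that break down, make, carry and sense heme were followed in the mouse colon, in cells of its surface and of its crypts. The 10 genes were set by name as Hmox1, Hmox2, Blvra, Blvrb, Slc48a1, Flvcr1, Slc46a1, Alas1, Fech and Bach1, out of 19938 genes named on the arrays. All 10 were represented, by 11 probe sets with a single gene symbol, and Flvcr1 was the member with 2 probe sets. The animals were male C57BL/6 mice of 11 weeks. For 14 days they ate a diet rich in fat (40% of its energy) and low in calcium, either without heme (control) or with 0.5 µmol/g heme, the iron porphyrin of red meat. Surface and crypt cells were cut from frozen colon rolls by laser capture microdissection, in which chosen cells are lifted from a section under a microscope. RNA of 4 control mice or of 3 heme-fed mice was pooled for each compartment, which gave 4 arrays, named control surface, heme surface, control crypt and heme crypt. Surface and crypt pools of one diet share their mice. With 1 pool in a group there is no replicate check, no test was possible, and the spread between mice is unknown.

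Heme oxygenases open the heme ring and release iron, carbon monoxide and biliverdin, and biliverdin reductases turn biliverdin into bilirubin. HMOX1 is the inducible oxygenase and HMOX2 the constitutive form. Heme is built in and around the mitochondrion, from the step of ALAS1, which limits the rate, to the insertion of iron by FECH, and transporters move it across membranes. BACH1 is a repressor that sits on the Hmox1 gene and leaves it when it binds heme, while the activator NRF2 uses the same type of site. In the colon, heme from the diet reaches the surface cells from the lumen, whereas the crypt below holds the dividing cells.

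The values are deposited RMA expression values on the log2 scale, in which 1 unit is a 2-fold step. A member was counted as higher or lower when it differed by at least 1 and reached 5.75 on at least 1 array of the comparison. This is the median of all gene values and is called the floor here. All 10 members reached the floor on at least 1 array, and of their 40 values only Hmox1 in control crypt cells lay below it. The dissection could be read from markers. Levels of all 6 surface colonocyte markers were between 11.6 and 12.9 in control surface cells and between 6.96 and 8.40 in control crypt cells. All 6 crypt markers differed the other way on both diets. In bulk RNA, fewer cells of a type and less RNA per cell cannot be told apart.

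Among heme-degrading genes, Hmox1 had far higher RNA levels after heme, and the genes of the steps around it stayed within 2-fold. The level of Hmox1 (GRCm38.p6 chr8:75093618-75100593, protein coding) was 6.14 in control surface cells, 11.53 in heme surface cells, 5.31 in control crypt cells and 7.12 in heme crypt cells. The heme surface pool thus stood above the other 3, and the heme crypt pool came next. The difference was 5.39 in surface cells, a 42.0-fold higher level, and 1.81 in crypt cells, a 3.50-fold higher level. Of the genes tested in surface cells, 1 had a larger difference than Hmox1 in either direction, and by size Hmox1 ranked 23 of 10491 in crypt cells. Because the control crypt value lay below the floor, the crypt fold is the less certain. With log2(2^value + 32), which damps low values, the difference was 1.25 in crypt cells and 4.87 in surface cells.

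The heme difference of Hmox1 was larger in surface cells than in crypt cells by 3.58 on the log2 scale. On the control diet, surface exceeded crypt cells by 0.83, which is short of the 2-fold rule. On heme the gap was 4.41 (21.3-fold). Markers of other cells moved beside this gene. Of the 10 macrophage markers, which stand for another cell type rich in heme oxygenase, 8 were tested in surface cells, all 8 lay above 0 on heme by 0.10 to 0.89, and none reached 2-fold. Their summed level went from 9.66 to 10.13 on the log2 scale in surface cells. In crypt cells the 8 tested lay between -1.02 and 0.23, with Csf1r past the rule. For the heme difference in surface minus that in crypt cells, 4 of 8 macrophage markers passed as higher (median 0.95), against 3.29% of all genes. In heme crypt cells all 8 smooth muscle and fibroblast markers lay below 0 with 3 past the rule (median -0.79). So did all 5 endothelial markers with 1 past it (median -0.68), while 1.19% of all genes passed as lower. In surface cells 1 of 7 smooth muscle and fibroblast markers tested lay above 0 on heme (median -0.62), as did 3 of 5 endothelial markers (median 0.06). None of these passed. The macrophage scavenger receptor gene Cd163 stayed below the floor on all 4 arrays. Of the other leukocyte markers, 2 were tested in surface cells, Ptprc (-0.44) and Cd3e (-0.47), both below 0 and short of the rule. In crypt cells Ptprc was the 1 tested (-0.62). In heme crypt cells, 4 of the 6 markers of surface colonocytes exceeded control crypt cells by the size rule, against 1.78% of all genes. The summed level of the 6 went from 10.28 to 11.70. Of the 6 crypt markers, Ccna2 (1.51) passed there as higher and Lgr5 (-1.07) as lower. The part of these markers in the Hmox1 values was not tested.

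**Figure D1:**
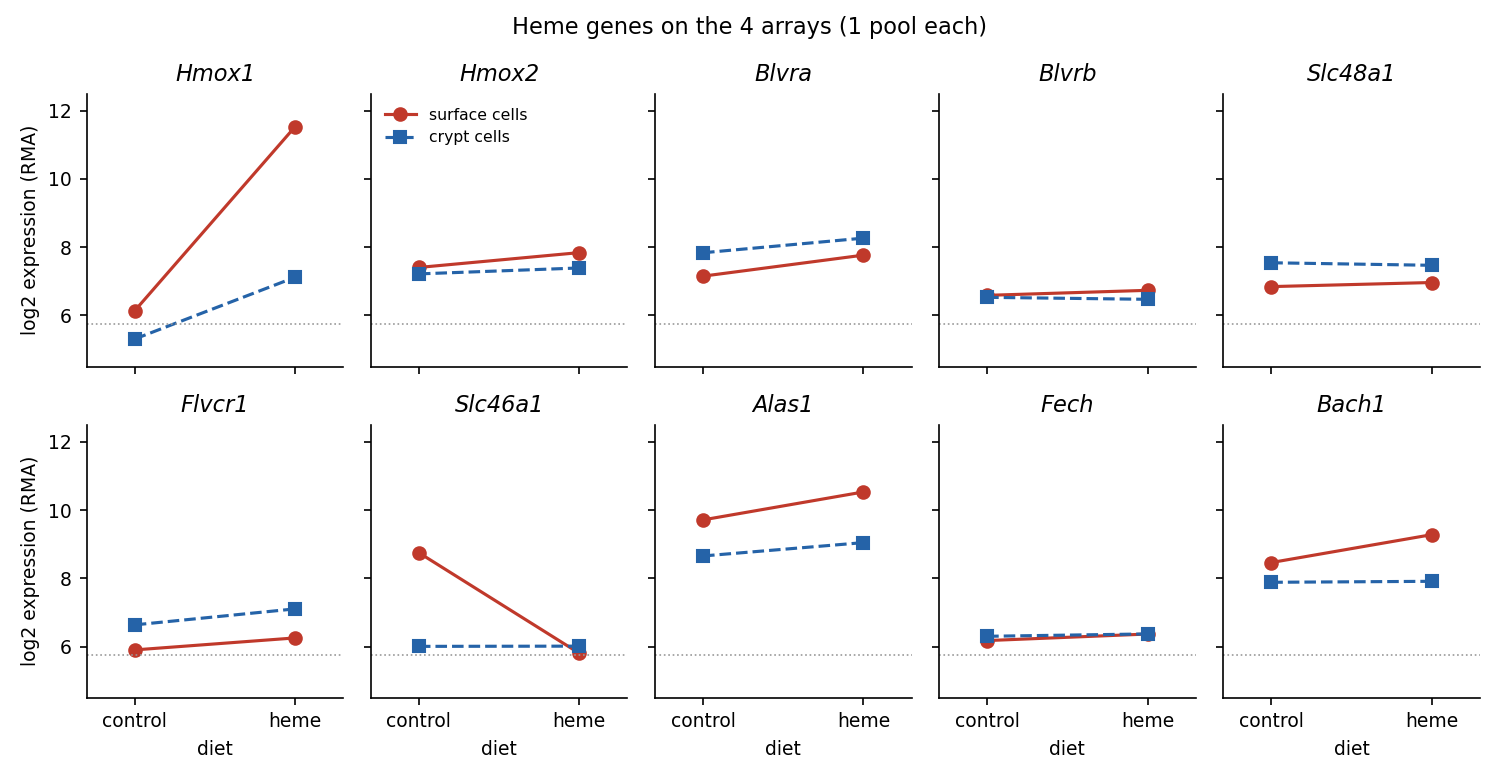
Log2 expression (RMA, vertical axis) of the 10 heme genes on the control and heme diets (horizontal axis), with circles and solid lines for surface cells, squares and dashed lines for crypt cells, 1 pooled array per point and the floor of 5.75 dotted. Hmox1 climbs to 11.53 in heme surface cells, Slc46a1 drops there to 5.81, and the lines of Fech and Blvrb stay nearly level.

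Hmox2, the constitutive oxygenase gene, read 7.41 in control surface, 7.84 in heme surface, 7.22 in control crypt and 7.39 in heme crypt cells. Its values spanned 0.62 over the arrays, against 6.22 for Hmox1. The heme difference of Hmox2 was 0.43 in surface and 0.17 in crypt cells, and neither passed the size rule.

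Blvra, encoding the biliverdin reductase that makes the main form of bilirubin in adults, read 7.15 and 7.77 in control and heme surface cells. In crypt cells its levels were 7.84 and 8.26. It was higher on heme in both compartments, by 0.62 (1.53-fold) and 0.43 (1.35-fold), without reaching 2-fold. Blvrb encodes the second reductase, which also reduces flavins. Its 4 values lay between 6.47 and 6.74, with heme differences of 0.15 in surface and -0.06 in crypt cells, the latter at 0.09 when arrays were centred on ribosomal protein genes.

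Of the 3 transporter genes, Slc46a1 passed the size rule on heme, and Slc48a1 and Flvcr1 did not. Slc46a1 encodes the proton-coupled folate transporter, first described as an intestinal heme carrier. Its level (chr11:78465701-78471945, protein coding) was 8.75 in control surface cells, 5.81 in heme surface cells, 6.01 in control crypt cells and 6.01 in heme crypt cells. Only the control surface pool was high, and the other 3 lay between 5.81 and 6.01, just above the floor. In surface cells Slc46a1 fell by 2.94 on the log2 scale, a 7.69-fold lower level, and 7 of the 10282 genes tested had a lower difference. In crypt cells it differed by 0.01. On the control diet surface exceeded crypt cells by 2.74 (6.69-fold), whereas on heme the compartments differed by -0.21, or by 0.94 after centring on ribosomal protein genes. The heme difference in surface minus that in crypt cells was -2.95, and 3 of 11147 genes had a lower value.

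The stretch around the start of Slc46a1 is shown because this gene had a called difference in 3 of the 5 comparisons. All 3 include the control surface pool, the only one with a high level, so they are not separate results. The RefSeq window (GRCm38.p6, chr11:78465451-78465750, plus strand, 250 bases before to 50 bases after the start) was searched on both strands for 5 motifs, namely TGANTCA (the AP-1 core, shared by CNC and small MAF factors), TGACNNNGC (the core of the antioxidant response element), CACGTG (the E-box), the palindromic NRF-1 core, in which 1 base may be C or T, and GGGCGG (the GC box). The capitals mark the match, a GC box read on the other strand, which 35.7% of the 32851 windows in the table also hold.
Slc46a1: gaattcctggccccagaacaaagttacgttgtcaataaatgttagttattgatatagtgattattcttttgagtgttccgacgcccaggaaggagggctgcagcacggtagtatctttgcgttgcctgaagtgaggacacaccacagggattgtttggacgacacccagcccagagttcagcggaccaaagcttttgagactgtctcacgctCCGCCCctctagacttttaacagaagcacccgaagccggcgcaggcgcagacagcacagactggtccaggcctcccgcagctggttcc

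Slc48a1 encodes HRG1, which moves heme out of lysosomes into the cytosol. Its levels were 6.84 and 6.96 in control and heme surface cells, and 7.54 and 7.47 in crypt cells. The heme differences of 0.12 and -0.07 were small, and the second was 0.07 after centring on ribosomal protein genes. Flvcr1, encoding a membrane protein known as a heme exporter and as a choline carrier, read 5.90 and 6.25 in surface cells and 6.64 and 7.11 in crypt cells. Its heme differences were 0.35 and 0.47. Its 2 probe sets disagreed in surface cells, with heme differences of 0.67 and 0.04, and in crypt cells they gave 0.37 and 0.56.

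Among synthesis genes, Alas1 was higher on the surface side and higher still on heme. Alas1 (chr9:106233455-106247954, protein coding) read 9.71 in control surface, 10.53 in heme surface, 8.65 in control crypt and 9.05 in heme crypt cells. Both surface pools exceeded both crypt pools. The heme difference was 0.82 (1.76-fold) in surface and 0.39 (1.31-fold) in crypt cells, both short of 2-fold, and 8.80% of the genes tested in surface cells had a larger difference. Surface exceeded crypt cells by 1.06 (2.08-fold) on the control diet and by 1.48 (2.80-fold) on heme. The control diet value is near the edge of the rule and read 1.00 with log2(2^value + 32). Fech, encoding the ferrochelatase that closes the pathway, varied by 0.19 over the 4 arrays, from 6.18 in control surface cells to 6.37 in both heme pools. Its heme differences were 0.19 and 0.07.

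The RefSeq table holds windows for 2 starts of Alas1, and the one shown (GRCm38.p6, chr9:106247681-106247980, minus strand) carries 2 matches to the NRF-1 core, in capitals, which begin 224 and 195 bases before that start. The other start lies upstream of it, where the annotated gene begins, and in its window the same matches fall after the start, at bases 1 and 30. NRF-1 and its coactivator PGC-1 alpha are known regulators of this gene. Of all windows, 2.27% hold the core. A match is a description of the letters and not a measured site.
Alas1: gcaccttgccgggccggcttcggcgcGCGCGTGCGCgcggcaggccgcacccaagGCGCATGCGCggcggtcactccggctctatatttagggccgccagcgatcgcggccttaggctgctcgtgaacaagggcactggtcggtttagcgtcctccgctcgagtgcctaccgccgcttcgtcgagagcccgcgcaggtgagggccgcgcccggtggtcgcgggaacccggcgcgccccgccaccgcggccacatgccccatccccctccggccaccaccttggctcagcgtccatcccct

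Ppargc1a, the gene of PGC-1 alpha, read 8.88 in control surface, 7.48 in heme surface, 6.96 in control crypt and 6.18 in heme crypt cells. It fell by 1.40 on the log2 scale in surface cells, where Alas1 was higher by 0.82, and its crypt difference was -0.78. Nrf1 stayed between 7.12 and 7.23. Regulation of Alas1 by either factor was not tested.

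Bach1, the heme-sensing repressor gene (chr16:87698954-87733346, protein coding), read 8.46 in control surface, 9.28 in heme surface, 7.88 in control crypt and 7.91 in heme crypt cells. The heme surface pool was the one that stood out. The heme difference was 0.82 (1.76-fold) in surface cells and 0.03 in crypt cells, and the gap between these was 0.79. Surface exceeded crypt cells by 0.58 on the control diet and by 1.37 (2.58-fold) on heme, where it passed the size rule. The window at its start (GRCm38.p6, chr16:87698704-87699003, plus strand) is printed for comparison with Alas1, which had a like heme difference in surface cells. It holds 4 GC boxes, in capitals, and no match to the remaining motifs.
Bach1: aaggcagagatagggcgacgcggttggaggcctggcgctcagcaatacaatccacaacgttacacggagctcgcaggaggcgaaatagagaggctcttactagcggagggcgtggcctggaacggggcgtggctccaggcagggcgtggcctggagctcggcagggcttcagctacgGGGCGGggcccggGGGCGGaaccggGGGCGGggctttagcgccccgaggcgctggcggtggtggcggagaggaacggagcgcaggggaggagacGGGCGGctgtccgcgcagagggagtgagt

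Windows were found for 7 of the 10 members, 11 in all, and not for Hmox1, Slc48a1 and Fech. The core of the antioxidant response element, present in 12.4% of all windows, was matched in Blvra (GCTCGGTCA, read on the other strand, beginning 49 bases before the start) and in Flvcr1 (TGACCCCGC, beginning 151 bases before it). TGANTCA (7.81% of windows) and CACGTG (7.15%) were matched in no member's window.

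**Figure D2:**
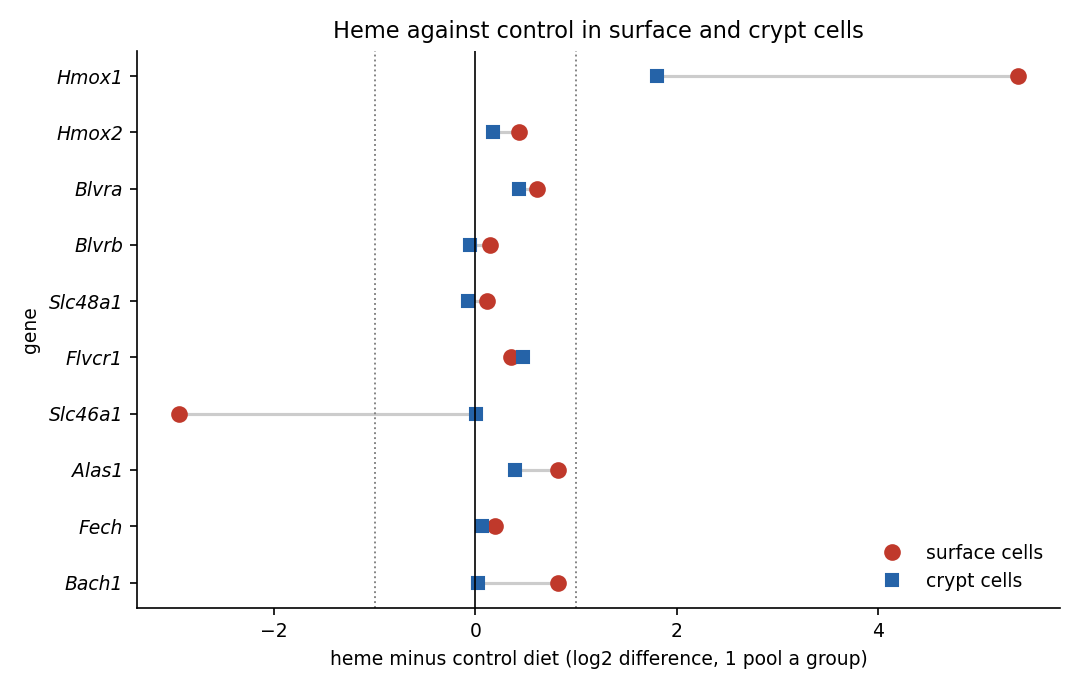
Heme minus control diet (log2 difference, horizontal axis) for each gene (vertical axis), with circles for surface cells, squares for crypt cells, 1 pool a group and dotted lines at the 2-fold rule. Hmox1 lies beyond the right line in both compartments (5.39 and 1.81), Slc46a1 beyond the left line in surface cells (-2.94), and the remaining points lie between the lines.

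Counted over the members, 2 of 10 passed the size rule for heme against control in surface cells, Hmox1 and Slc46a1, where 5.63% of all genes tested passed. In crypt cells 1 of 10 passed, against 2.97% of all genes. For the heme difference in surface minus that in crypt cells, 2 of 10 passed, the same pair, against 5.46%. The median over the 10 members was 0.39 in surface cells and 0.12 in crypt cells, beside -0.02 and 0.01 over all genes tested. Above 0 lay 9 of 10 members in surface cells, where 48.5% of all genes did, and 8 of 10 in crypt cells, where 51.5% did. At a 1.5-fold rule, 5 of 10 members passed in surface cells, with Blvra, Alas1 and Bach1 added, against 18.5% of genes. The values nearest below the 2-fold rule were those of Alas1 and Bach1, both 0.82.

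For surface against crypt cells, 2 of 10 members passed on the control diet, Slc46a1 and Alas1, against 25.5% of all genes. On heme 3 of 10 passed, Hmox1, Alas1 and Bach1, against 31.8%. These shares are near those of all genes. At 1.5-fold, 6 of 10 passed on the control diet (45.4% of genes), and at 3-fold 1 of 10 passed on each diet, Slc46a1 on control (10.9% of genes) and Hmox1 on heme (15.0%). On the crypt side on both diets lay Blvra (-0.68 on control and -0.50 on heme), Slc48a1 (-0.70 and -0.50) and Flvcr1 (-0.73 and -0.85). So did Fech, closer to 0 (-0.13 and -0.003). All of these had the opposite sign when arrays were centred on ribosomal protein genes. This moved the median of all genes from -0.05 to 1.24 on the control diet and to 1.15 on heme. The probe sets of Flvcr1 gave -1.30 and -0.17 on the control diet.

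**Figure D3:**
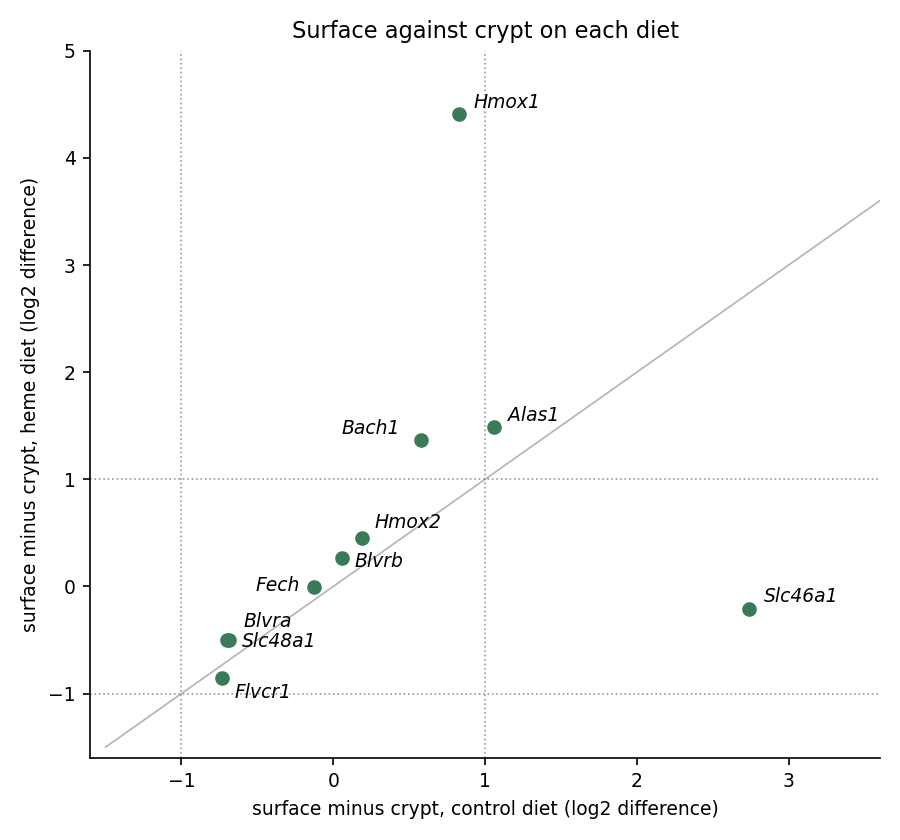
Surface minus crypt (log2 difference) on the control diet (horizontal axis) and on the heme diet (vertical axis), 1 point per gene, with the line of equal values and dotted lines at the 2-fold rule. Most genes lie near the line, whereas Hmox1 lies far above it (0.83 and 4.41) and Slc46a1 far below it (2.74 and -0.21).

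Over the 4 arrays, the profiles most like that of Hmox1, by root mean square distance after centring each profile on its own mean, were those of the amino acid transporter gene Slc6a19 (0.21), the conjugate export pump gene Abcc2 (0.51), the pyruvate dehydrogenase kinase gene Pdk4 (0.73), the malic enzyme gene Me1 (0.76) and the reductase gene Akr1b8 (0.83). Slc6a19 differed by 5.26 in surface and 1.25 in crypt cells, but its values outside heme surface cells were all below the floor, so these sizes are uncertain. For Slc46a1 they were the oxidase gene Duox2 (0.13), the manganese exporter gene Slc30a10 (0.24), the deiodinase gene Dio1 (0.27), the oxidase maturation gene Duoxa2 (0.29) and the calcium channel gene Trpv6 (0.29). Duox2 read 10.53 in control surface, 7.72 in heme surface, 8.00 in control crypt and 8.15 in heme crypt cells. Low values enter some of the rest too. Trpv6 was above the floor in control surface cells only, and Abcc2 and Pdk4 were below it in both crypt pools. Me1 was below it in control crypt cells and Slc30a10 in heme crypt cells. These likenesses are descriptions over 4 arrays, among 10801 other genes.

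Around the members, 70 further genes in 9 lists were read, of which 63 were measured singly. In surface cells 18 of 55 tested passed, 17 as higher and 1 as lower, beside 5.63% of all genes. In crypt cells 7 of 53 passed, all as higher, beside 2.97% of all genes, and the median over all genes of the lists was 0.42 and 0.19. The lists were chosen with results of these data known.

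The remaining enzymes of heme synthesis did not pass the rule on heme. Of 7, 5 were tested in surface cells, with differences from -0.35 to 0.85 and a median of -0.07. Alad, encoding the enzyme after ALAS1, was at the upper end, at 7.59 and 8.44 in surface cells and 8.22 and 8.44 in crypt cells. Cpox, encoding coproporphyrinogen oxidase, read 6.50 and 6.43 in surface against 8.29 and 8.44 in crypt cells, a surface minus crypt difference of -1.79 on the control diet. It thus lay on the crypt side, opposite to Alas1. Alas2, the red cell form of the first enzyme, was below the floor on all 4 arrays, as were the erythroid genes Slc4a1 and Epb42. Probe sets shared by several globin genes read 5.87 to 6.81 for alpha and 7.19 to 8.09 for beta globin, lowest in heme crypt cells.

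Mitochondrial and porphyrin transport genes gave no call on heme among 9 tested in either compartment. Abcb6, encoding a porphyrin transporter, differed by 0.59 and 0.58 in surface and crypt cells, and Abcb10 by 0.49 and 0.57. The mitochondrial iron importer gene Slc25a37 differed by 0.91 in surface and -0.18 in crypt cells.

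Of 5 further heme and porphyrin carriers tested in surface cells, 2 passed as higher on heme, and the list median was -0.03. Abcg2, encoding an exporter of porphyrins, read 9.93 and 10.96 in surface and 6.66 and 7.16 in crypt cells. Abcc5, encoding a multidrug resistance pump, read 6.18 and 7.88 in surface and 5.93 and 5.53 in crypt cells. Of 5 bilirubin-related genes listed, Ugt1a1, listed for bilirubin conjugation, was not measured singly. Among the 4 tested, 3 passed in surface cells and none was lower. Abcc2, whose pump exports bilirubin glucuronides, read 5.87 and 10.30 in surface cells, a 21.5-fold difference, and 4.80 and 5.62 in crypt cells, both below the floor. The glutathione transferase genes Gstm1 (1.80) and Gsta3 (1.57) were also higher, and Gsta3 passed in crypt cells too (1.86), while the conjugate pump gene Abcc3 differed by 0.99 and did not pass. The plasma heme binder gene Hpx differed by -0.61 in surface cells.

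Genes of electron supply and of iron handling were higher in part. Of 5 electron supply genes listed, 3 were measured singly, without Por and G6pdx, and 2 passed in surface cells. Me1, a source of NADPH, read 6.28 and 10.24 in surface cells. Its crypt levels were 5.72, below the floor, and 7.81. Pgd of the pentose phosphate pathway differed by 1.54 and 0.90. Of 11 iron genes, 3 passed in surface cells, the transferrin receptor gene Tfrc (1.98), Aco1 (1.39), whose protein is an iron sensor, and the ferritin light chain gene Ftl1 (1.29). Tfrc (1.10) was the 1 that passed in crypt cells. The ferritin heavy chain gene Fth1 differed by 0.05 and -0.16. No folate gene passed on heme beside Slc46a1, of 2 tested in surface and 3 in crypt cells. Ggh, encoding an enzyme that trims the glutamate chain of folates, was high in surface cells on both diets, at 11.30 and 11.14.

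Among 9 transcription regulators, Ppargc1a was the 1 that passed. Nfe2l2, which encodes NRF2, differed by -0.16 in surface and 0.06 in crypt cells, and Keap1, its inhibitor gene, by 0.00 and 0.19. The small MAF partner genes Maff and Mafg differed by 0.52 and 0.74 in surface cells. Of 8 genes known as targets of both BACH1 and NRF2, 7 were past the rule upward in surface cells (list median 2.14), where 3.62% of all genes were. In crypt cells 4 of 8 were (list median 1.05), against 1.78% of all genes. This list too was chosen with results of these data known, and regulation by either factor was not tested. Mafg was the exception in surface cells and is also counted as a regulator. Slc7a11, the cystine importer gene, read 4.21 in control surface cells, below the floor, and 10.27 on heme. Its crypt levels were 5.72, also below the floor, and 7.52. The quinone reductase gene Nqo1 differed by 4.09 and 1.34, the glutathione synthesis genes Gclc by 3.29 and 1.19 and Gclm by 2.66 and 0.92, and Srxn1, encoding sulfiredoxin, by 1.63 and 1.25. Osgin1 (1.16) and the thioredoxin reductase gene Txnrd1 (1.07) passed in surface cells.

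**Figure D4:**
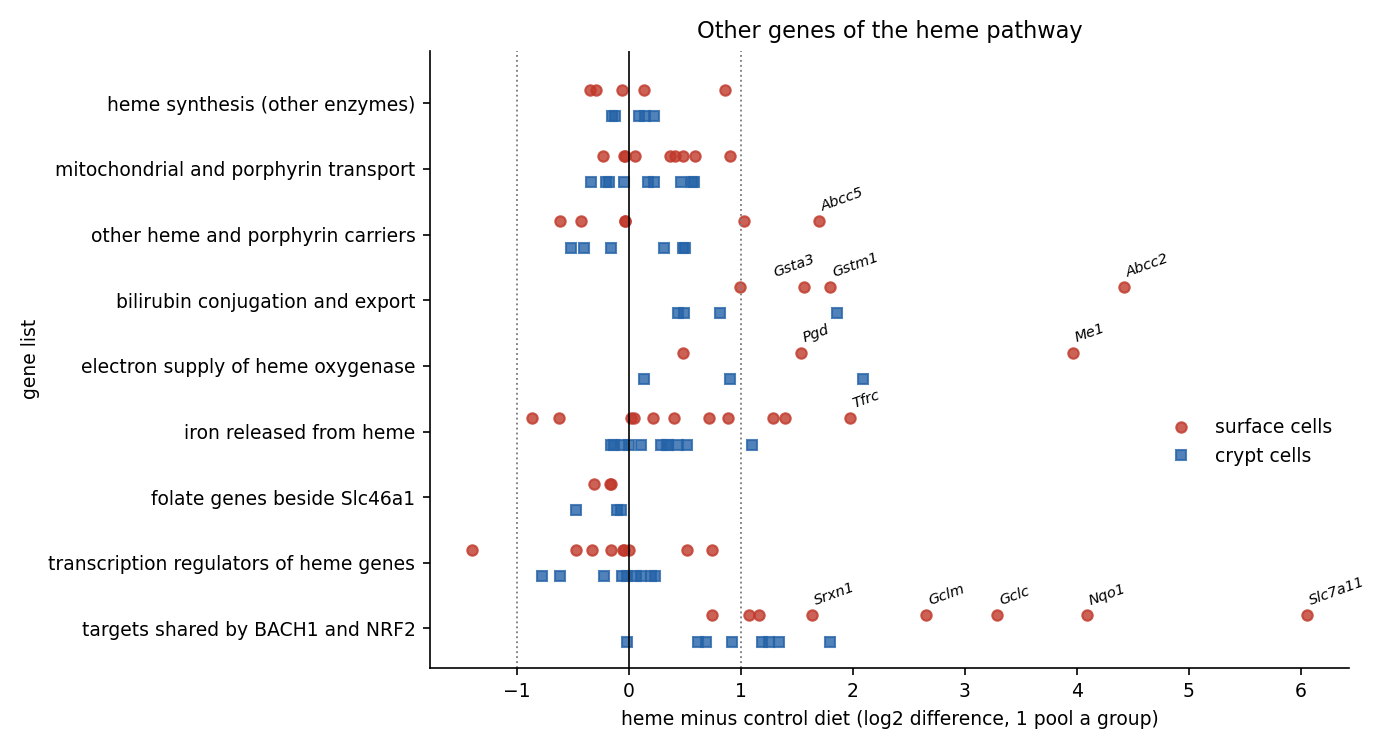
Heme minus control diet (log2 difference, horizontal axis) for genes of the 9 lists (vertical axis) that reached the floor on at least 1 array, with circles for surface cells, squares for crypt cells and dotted lines at the 2-fold rule. Names mark genes at least 1.5 from 0 in surface cells, and the shared targets reach 6.05 (Slc7a11) while the synthesis enzymes stay at or below 0.85.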

How the data were processed

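The authors deposited expression on the log2 scale for each probe set. RMA is the method named per the submitters' processing notes. The sources used here give neither its version nor the arrays normalized with each other. Per the labels' protocols, labelling used an Affymetrix whole-transcript kit and 100 ng of RNA from each pool. Of 35556 probe sets, 21789 had 1 gene symbol in the platform annotation, 1621 several and 12146 none, and symbols were updated through gene identifiers to the GRCm38.p6 table (21698 matched). A gene is the mean of its single-symbol probe sets. Differences of log2 values were computed over all genes and read by the size rule (2-fold, floor 5.75), with no test. Detection calls were not used, and precision is limited by there being 4 arrays. The rule for genes named covers the members, list genes past the size rule on heme, and the 5 genes of most like profile for Hmox1 and Slc46a1. Other list genes were named after their values were seen. The members and lists were chosen with earlier results of these data known. Alternatives changed scaling, floor, fold and probe set choice. Python 3.11.15, numpy 2.4.6, pandas 2.3.3, matplotlib 3.10.9 and, for cyclic loess, limma 3.58.1 under R 4.3.3 were used. The code of the size rule was run on simulated arrays with planted changes larger than the rule. That checks the code only, and not low genes or the spread between pools.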

Additional observations from a re-analysis of the deposited data

Results flagged for a closer look

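Among the members and the list genes past the size rule on heme or in the surface minus crypt heme difference, 6 had heme differences of opposite signs in surface and crypt cells, and with 1 pool a group this was not tested. Opposite signs were common, in 18 of the 57 list genes at the floor on any array and in 36.0% of all such genes. Slc46a1 differed by -2.94 in surface and 0.01 in crypt cells, a gap of -2.95. Abcc5 differed by 1.69 and -0.40, a gap of 2.09. Slc25a37 differed by 0.91 and -0.18, a gap of 1.08, and the metal importer gene Slc11a2 by -0.86 and 0.35, a gap of -1.21. For Blvrb (0.15 and -0.06, a gap of 0.20) and Slc48a1 (0.12 and -0.07, a gap of 0.19), the sizes were below the median size of all genes in each compartment, 0.27 and 0.21. The crypt differences of Slc46a1 and Slc25a37 were also below the median size there, so their signs in crypt cells carry little weight.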

How the results depend on the processing

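Under 10 alternatives, Hmox1 and Slc46a1 kept their direction and stayed past the size rule for heme against control in surface cells and for the surface minus crypt heme difference. Both genes have 1 probe set, so lifting the floor, the 1.5-fold rule and both probe set choices could not undo these calls. At 1.5-fold the count in surface cells was 5 of 10. In crypt cells the count became 0 with the floor at the upper quartile of gene values (7.53), which neither Hmox1 value reached. Between surface and crypt cells of control mice, 7 members passed after centring on 54 ribosomal protein genes (64.6% of all genes did), 6 at 1.5-fold and 1 at 3-fold. With the probe set of the highest mean, 3 passed on the control diet (25.5% of all genes did) and 4 on heme (31.8%), with Flvcr1 added. On the heme diet 6 passed after centring on ribosomal protein genes (61.6% of all genes did) and 1 at 3-fold. That centring also turned Fech from -0.13 to 1.10 on the control diet and from 0.00 to 1.15 on heme, since ribosomal protein levels were themselves lower in surface cells (medians 9.56 and 9.49 against 10.79 and 10.64). Of 500 member values under the alternatives, 477 kept a call or stayed without one. A change of sign without a call is counted among these. Another 17 gained a call in the same direction, 4 lost it and 2, both of Fech, gained one with the other sign. No probe set with several symbols included a member, and all 10 members reached the floor in every comparison. Adding such probe sets or lifting the floor thus could not change a call, and these outcomes are counted among the 477. Taking the probe set of the highest mean could change Flvcr1 only, and the settings of floor and fold left every difference as it was. The 477 are therefore not separate checks. No paired analysis was possible because each group holds 1 array and no test was run.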
